A study of Homo sapiens with 16 samples.

Results

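SERPINA3, which encodes the secreted inhibitor alpha-1-antichymotrypsin, and 8 further genes of extracellular proteolysis were followed through all libraries of the series. The others were SERPINE2, PLAU, PLAUR, MMP1, MMP2, MMP14, TIMP1 and TIMP3. They were found by their gene symbols, and all 9 were present among the 20314 genes counted in U251 and the 20626 counted in U343. SERPINA3 was selected on its measured change, the lower read counts after miR-137 transfection, above all in U343 RIPSeq, so its levels are given as a description with no test. The remaining 8 genes were named with earlier results of these data in view, so their tests describe these libraries and are not independent of that choice.

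U251 and U343 are established glioblastoma cell lines, each a single line grown in culture. Both were transfected with a miR-137 mimic or with a control mimic, each at 25 nM, and both transfections were present in every experiment. Total RNA was sequenced after 48 hours (RNASeq), and RNA recovered with antibodies against the poly(A) binding protein PABP was sequenced in parallel (RIPSeq). This gave 4 experiments, RNASeq and RIPSeq in either line, each with 2 control and 2 miR-137 libraries, or 16 libraries in 8 groups. The control cells differed from the treated cells only in the mimic, as far as the labels say. Nothing in the labels states that the 2 libraries of a group came from separate cultures, so p-values measure the spread between these libraries, which may be technical.

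Proteolysis at the cell surface runs through a small number of linked systems. The urokinase PLAU, bound to its receptor PLAUR, turns plasminogen into plasmin, which degrades matrix proteins and activates some metalloproteinases. Serpins such as SERPINE2 block the plasminogen activators, the matrix metalloproteinases (MMPs) cleave collagens and other matrix proteins, and the TIMPs inhibit the MMPs. SERPINA3 inhibits chymotrypsin-like proteases such as cathepsin G, is an acute-phase protein and is made by reactive astrocytes in the brain. The urokinase system and the MMPs are known for their part in the invasion of glioma cells into brain tissue. A miRNA pairs with mRNAs mainly through its seed, bases 2 to 8, and the sequence of mature miR-137 is shown because it is the agent that all comparisons turn on, with the seed in capitals.
hsa-miR-137-3p: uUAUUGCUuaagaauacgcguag
The sequence is RefSeq's, from the minus strand of chr1:98046091-98046113 in GRCh38.p14. Target sites in the untranslated regions of the 9 genes were not analysed here.

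In hg18, the build of the counts, SERPINA3 lies on the plus strand of chr14:94148467-94160143 and SERPINE2 on the minus strand of chr2:224548009-224612280. PLAU occupies chr10:75340868-75347262 (plus) and its receptor PLAUR chr19:48842088-48866342 (minus). The MMP genes are at chr11:102165851-102174176 (MMP1, minus), chr16:54070582-54098087 (MMP2, plus) and chr14:22375633-22386643 (MMP14, plus). TIMP1 is at chrX:47326634-47331134 and TIMP3 at chr22:31526802-31589028, both on the plus strand. Each count covers the merged exons of a gene. The spans of 3 genes lie inside a gene of the opposite strand, and no strand was stated for the counting, so reads of the partners cannot be told apart where exons overlap. PLAU lies inside C10orf55, which had 44 to 130 reads in a U251 library and 3 to 8 in a U343 library. TIMP1 lies inside SYN1, with 0 to 9 reads in any library, and TIMP3 inside SYN3, with 0 to 12.

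Depth ranged from 10156675 counted reads per library in U251 RNASeq to 45134766 in U343 RNASeq. Levels are counts per 1000000 reads (CPM), with library totals scaled by TMM factors within each experiment, so levels of different experiments are set side by side and were not tested against each other. The U251 and U343 libraries were also made with different kits, so that line and kit cannot be told apart. The 8 glial and glioma markers were all at 1 CPM or more in the control RNASeq libraries of both lines. VIM, CD44, NES, SOX2, SOX9 and FABP7 were at 12.6 CPM or more, and S100B at 1.75 CPM in U251 and 3.92 CPM in U343. GFAP, the intermediate filament of astrocytes, was at 32.0 CPM in U251 and 4599 CPM in U343 control RNASeq, and U343 also had KRT5, a keratin of epithelial cells, at 1061 CPM. Among the other markers of other cell types, CDH5 of endothelium was at 21.2 CPM in U343 and the neuronal SYT1 at 34.5 CPM in U251. The macrophage marker CD68 was at 9.06 CPM in U251 and 3.71 CPM in U343, MBP at 4.00 CPM in U343 and SNAP25 at 3.62 CPM in U251. PTPRC, EPCAM and ALB of leukocytes, epithelium and liver had between 1 and 11 reads in the pair of control RNASeq libraries of either line. In 2 experiments, replicates stood apart from each other. The 2 control libraries of U251 RIPSeq differed by a median of 0.628 (absolute log2 ratio over genes), against 0.0549 between the miR-137 libraries. In U343 RNASeq, miR-137 replicate 1 lacked the rise of interferon-induced genes seen in every other miR-137 library, as described further on.

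SERPINA3 was the gene of the set with the lowest levels after miR-137 relative to its controls in every experiment. In U251 RNASeq it had 126 and 158 reads in the controls and 4 and 5 in the miR-137 libraries, or 8.05 and 9.66 CPM against 0.361 and 0.444 CPM. In U251 RIPSeq the controls had 131 and 128 reads (5.62 and 4.58 CPM) and the miR-137 libraries 44 and 35 (1.68 and 1.29 CPM). The U343 RNASeq libraries held 130 and 135 reads in controls (2.82 and 3.56 CPM) and 18 and 28 after miR-137 (0.427 and 0.660 CPM). The groups did not overlap in any of these experiments, nor in U343 RIPSeq, where 524 and 685 control reads stood against 18 and 20 (11.6 and 16.8 CPM against 0.461 and 0.511 CPM). Because the cells were measured in bulk, fewer expressing cells and less RNA per cell cannot be told apart, here and for the other genes.

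**Figure D1:**
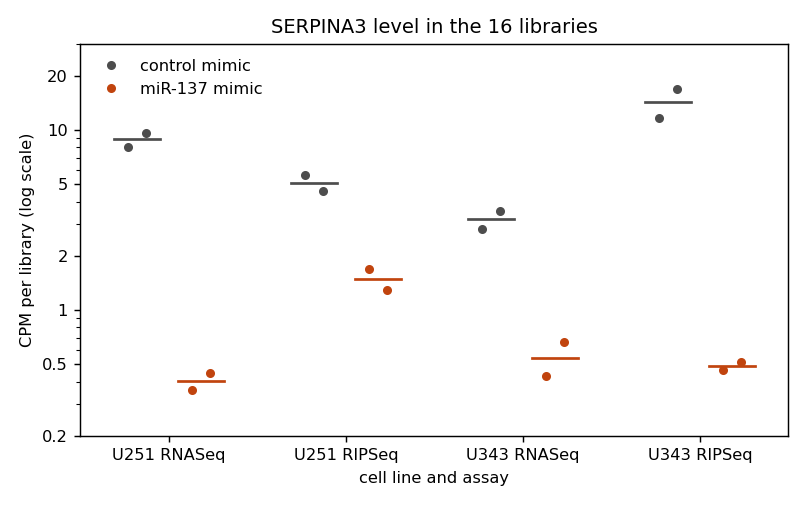
SERPINA3 level in CPM (log axis) in each of the 16 libraries, by cell line and assay. Points are libraries, 2 per group, and lines their means. All control libraries lie at or above 2.82 CPM and all miR-137 libraries at or below 1.68 CPM.

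The log2 fold changes of SERPINA3 were -4.43 ± 0.33 (SE) in U251 RNASeq, -1.78 ± 0.30 in U251 RIPSeq, -2.54 ± 0.30 in U343 RNASeq and -4.86 ± 0.26 in U343 RIPSeq. With each library left out in turn, they ranged from -4.59 to -4.28, -1.93 to -1.55, -2.89 to -2.27 and -5.11 to -4.58 in the same order. The assay with the larger difference was thus RNASeq in U251 and RIPSeq in U343. In U251 the RIPSeq log2 fold change minus that of RNASeq was 2.61 ± 0.45, and in U343 it was -2.32 ± 0.43. Both are descriptions of the gene chosen for this pattern.

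Ordered by mean level, the SERPINA3 groups ran from U251 RNASeq after miR-137 (0.402 CPM) through U343 RIPSeq after miR-137 (0.486 CPM) and U343 RNASeq after miR-137 (0.544 CPM) to U251 RIPSeq after miR-137 (1.49 CPM). Above them came the controls of U343 RNASeq (3.19 CPM), U251 RIPSeq (5.10 CPM), U251 RNASeq (8.86 CPM) and U343 RIPSeq (14.2 CPM). The miR-137 groups of U343 RIPSeq and U343 RNASeq overlapped each other, and no other neighbours in this order did, with levels scaled separately in each experiment.

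Over the 16 libraries, 14539 genes were compared with SERPINA3 by the root mean square difference of centred log2 CPM, where smaller values mean a more similar pattern and the median over all genes was 2.03. The 5 nearest genes were NT5DC2 (0.902), CD83 (0.918), METTL9 (0.927), KIAA0114 (0.936) and CNN2 (0.941). NT5DC2 went from 103 to 24.3 CPM in U251 RNASeq and from 237 to 17.4 CPM in U343 RIPSeq between control and miR-137 means. CD83, a surface protein of mature dendritic cells, went from 5.75 to 2.68 CPM and from 15.6 to 1.41 CPM in the same experiments. CNN2, an actin-binding calponin, had log2 fold changes of -2.98 in U251 RNASeq and -1.63 in U343 RIPSeq. None of the other 8 genes followed SERPINA3 closely. Their nearest was TIMP1 with a difference of 2.04, and the farthest PLAU with 6.22. This measure used 1 TMM scaling over all 16 libraries, and it counts differences in level between lines and assays as well as responses. PLAU, for example, was at 441 CPM in U251 RNASeq controls and at 0.0900 CPM in U343 RNASeq controls.

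Of the other 8 genes, those that passed the test after miR-137 were mostly higher. In U251 RNASeq, edgeR's quasi-likelihood test with Benjamini-Hochberg adjustment over all genes called 6 of the 8 higher and 1 lower, where 28.7% and 29.0% of all 13052 tested genes were called higher and lower. That split of all genes in U251 RNASeq moved with the scaling, from 3749 higher and 3780 lower to 4588 and 3001 with upper quartiles and to 5432 and 2458 with unscaled totals, while the 8 genes kept their directions. In U251 RIPSeq 1 of 8 was called higher and 0 lower, against 0.944% and 0.263% of all genes. At an unadjusted p under 0.05 there were 6 of the 8 and 2828 of all 14087 tested genes. The calls of that experiment depended strongly on which libraries were in the fit. With 1 control left out, the spread was that of the closely matching miR-137 pair alone, and calls rose over all genes. Nothing particular to the 8 genes is read from such fits. In U343 RNASeq 7 of the 8 passed the filter on low counts, of which 2 were called higher and 0 lower (8.31% and 11.7% of all genes), and without either control 0 were. In U343 RIPSeq 4 of 8 were called higher and 0 lower (28.5% and 27.8%), and 2 were without control replicate 2 or miR-137 replicate 1. The CPM of the groups did not overlap for any of the 9 genes in both U251 experiments, where that held for 79.5% of all genes in RNASeq and 54.8% in RIPSeq. In RNASeq 7 were higher and 2 lower after miR-137, and in RIPSeq 4 were higher and 5 lower, the latter SERPINA3, PLAU, MMP2, MMP14 and TIMP1. With unscaled totals, MMP14 and TIMP1 in U251 RIPSeq had pairs of libraries in both directions, with odds ratios of 0.603 to 1.07 and 0.545 to 1.103. In each U343 experiment 4 of the 9 overlapped, and the groups were apart for 65.7% of all genes in RNASeq and 78.5% in RIPSeq.

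**Figure D2:**
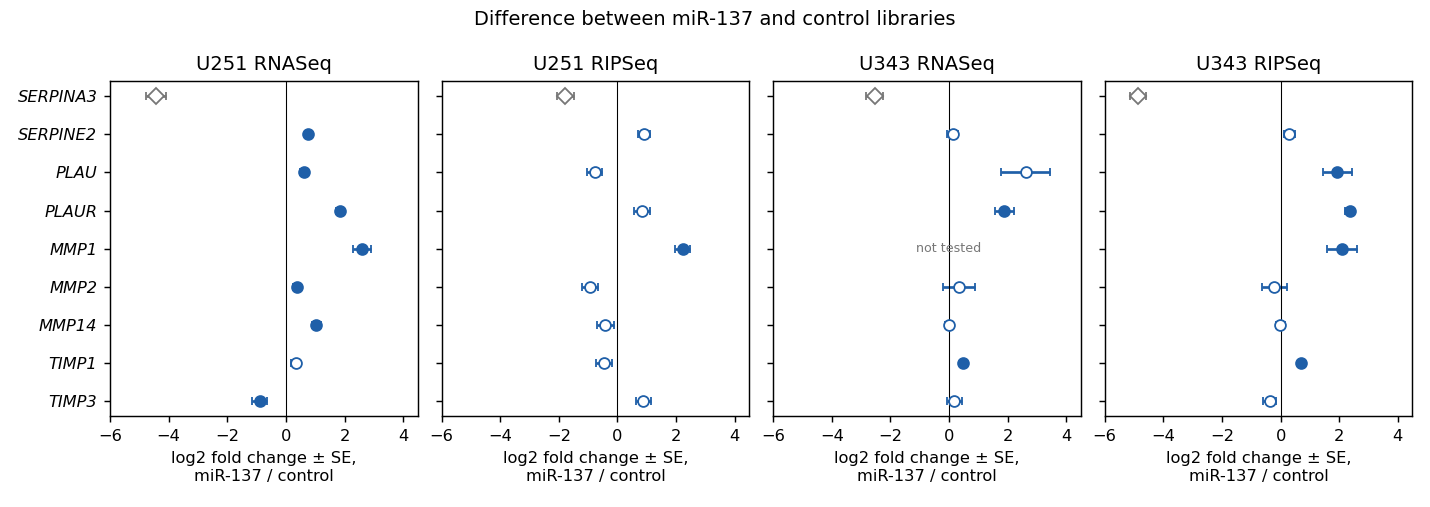
Log2 fold change between miR-137 and control libraries (horizontal axis, ± SE) of the 9 genes in the 4 experiments. Filled circles passed an adjusted p of 0.05 in edgeR, open circles did not, and diamonds mark SERPINA3, which was not tested. SERPINA3 lies left of 0 in all panels and PLAUR right of 0.

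The study's own rule asked for an odds ratio over 2 at an adjusted p under 0.001 in Fisher's exact tests, run on every pairing of 1 treated with 1 control library, 4 in all. Mirrored for rises, it called PLAUR, MMP1 and MMP14 higher in U251 RNASeq, where 6.14% of all genes were called higher. In U251 RIPSeq it called only MMP1 of the 8 (3.47% of all genes), and in U343 only PLAUR, in RNASeq (1.51%) as in RIPSeq (4.83%). Of the 8, 0 were called lower by the rule in any experiment, against 2.21% of all genes in U251 RNASeq, 1.49% in U251 RIPSeq, 2.88% in U343 RNASeq and 3.40% in U343 RIPSeq.

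PLAUR, the urokinase receptor, rose in 3 of the 4 experiments and in both lines. In U251 RNASeq its level was 107 and 112 CPM in controls and 379 and 414 CPM after miR-137, a log2 fold change of 1.86 ± 0.13 (edgeR, adjusted p = 1.2e-07). In U343 RIPSeq the controls were at 34.1 and 27.4 CPM and the miR-137 libraries at 177 and 137.4 CPM, a change of 2.36 ± 0.15 (edgeR, adjusted p = 1.7e-05) or 5.12-fold. In both experiments the miR-137 libraries lay well above the controls. U343 RNASeq gave 25.4 and 33.5 CPM against 77.7 and 141 CPM (1.89 ± 0.34, edgeR, adjusted p = 0.028), a call that was lost without either control library, when 0 genes in all were called. In U251 RIPSeq the levels were 575 and 363 CPM against 787 and 886 CPM, again without overlap, but the change of 0.84 ± 0.29 did not pass (edgeR, adjusted p = 0.21).

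The promoter of PLAUR was the only one among the 7 of these genes with a RefSeq promoter entry that held the AP-1 motif TGANTCA, searched on both strands from 250 bases before to 50 after the start. The motif was present in 7.71% of 35116 promoters. It is shown in capitals with the bases around it, since PLAUR rose in both lines and held the only match.
PLAUR promoter, minus strand of chr19:43670338-43670366 in GRCh38.p14: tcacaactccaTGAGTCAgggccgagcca
The motif lay 186 to 180 bases before the start. The STAT motif TTCNNNGAA, found in 7.66% of all promoters, and the interferon-stimulated response element, searched as GAAA and GAAA with 2 bases of any kind between them and found in 3.57%, were in 0 of the 7. MMP1 and MMP2 had no entry. Such a match is a description of the letters and says nothing about binding in these cells.

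PLAU, the urokinase itself, had many reads in U251 and few in U343. In U251 RNASeq it was at 456 and 425 CPM in controls and 637 and 712 CPM after miR-137, a rise of 0.61 ± 0.14 on the log2 scale (edgeR, adjusted p = 0.0020). In U251 RIPSeq the order was turned, with 2460 and 1560 CPM in controls and 1143 and 1197 CPM after miR-137, but the change of -0.78 ± 0.26 did not pass (edgeR, adjusted p = 0.21). In U343, PLAU was close to absent, with 1 and 6 control reads in RNASeq and 5 and 2 in RIPSeq. After miR-137 it had 30 and 15 reads in RNASeq and 12 and 13 in RIPSeq, which gave depth-scaled ratios of 6.39 (exact 95% interval 2.86 to 16.8) and 3.92 (1.65 to 10.7). These intervals cover counting error only, since PCR copies without molecular identifiers are not independent molecules. edgeR called the rise in U343 RIPSeq (1.93 ± 0.50, adjusted p = 0.012) and not that in RNASeq (2.61 ± 0.83, adjusted p = 0.097). The RIPSeq call was lost in DESeq2 and without control replicate 2 or either miR-137 library.

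**Figure D3:**
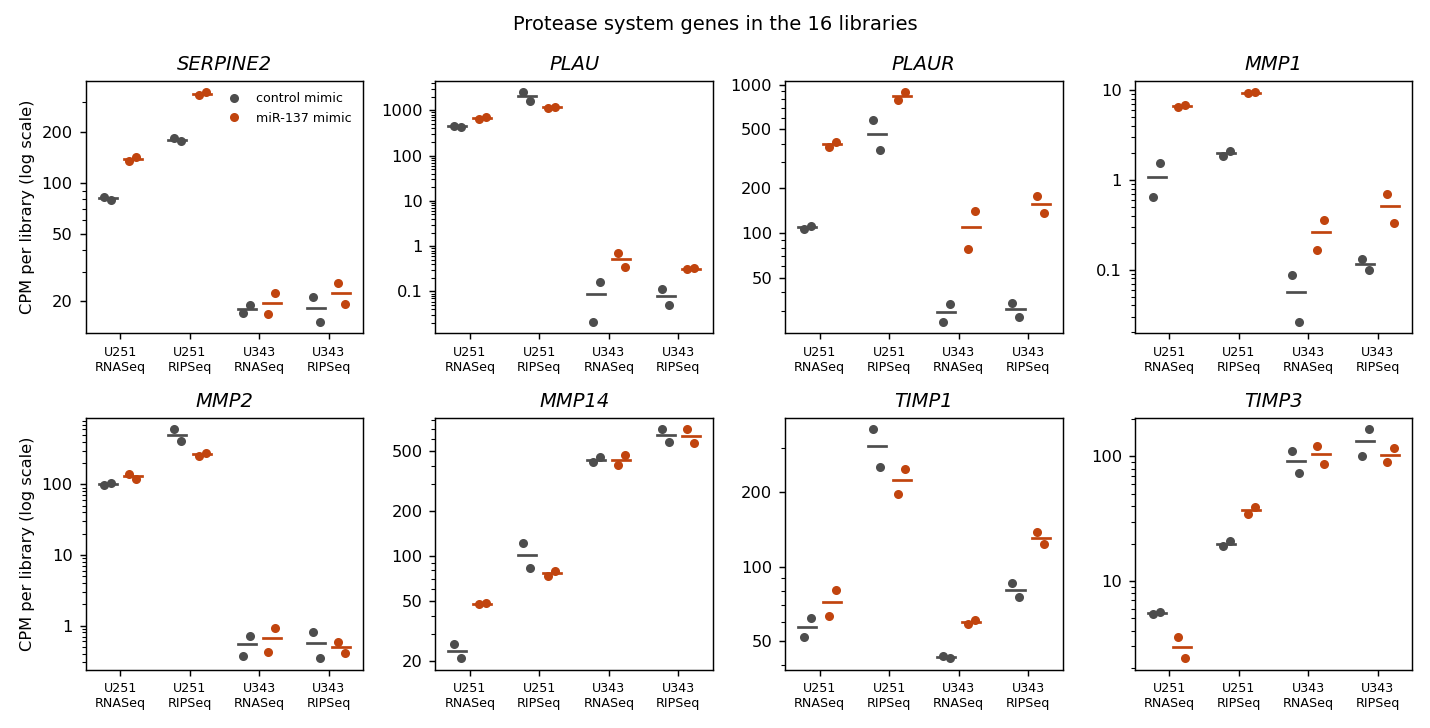
Level in CPM (log axes, 1 per panel) of the 8 other genes in each of the 16 libraries. Points are libraries, control mimic in grey and miR-137 mimic in orange, and lines are means of 2. PLAUR lies higher after miR-137 in all 4 experiments, while MMP2 is at 253 CPM or more in U251 RIPSeq and at most 0.920 CPM in U343.

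SERPINE2, a serpin that inhibits thrombin and the plasminogen activators, rose in U251 RNASeq from 82.6 and 79.2 CPM to 134 and 141 CPM (0.76 ± 0.12, edgeR, adjusted p = 0.00015). In U251 RIPSeq it was at 184 and 175 CPM in controls and 329 and 340 CPM after miR-137. This is a difference of similar size and without overlap (0.90 ± 0.20), yet it did not pass in edgeR (adjusted p = 0.13). In U343 the groups overlapped in both assays, with levels between 15.2 and 25.5 CPM and log2 fold changes of 0.12 ± 0.18 in RNASeq and 0.30 ± 0.18 in RIPSeq (edgeR, adjusted p = 0.67 and 0.21).

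PLAT, the tissue plasminogen activator, rose in U343 RNASeq from 28.2 and 33.8 CPM to 75.3 and 123 CPM (1.68 ± 0.27, edgeR, adjusted p = 0.024) and in U343 RIPSeq by 1.67 ± 0.26 (adjusted p = 0.0010). In U251 RNASeq it rose by 0.58 ± 0.13 (adjusted p = 0.0016), and in U251 RIPSeq the value was 0.84 ± 0.21 (adjusted p = 0.14). Without either U343 RNASeq control, the call of PLAT in that experiment was lost. Over the list of plasminogen activation without PLAU, PLAUR and SERPINE2, 3 of 6 tested genes were higher and 2 lower in U251 RNASeq, 0 and 0 of 6 in U251 RIPSeq, 1 and 0 of 6 in U343 RNASeq, and 1 and 2 of 7 in U343 RIPSeq. Of all genes, 28.7% were higher and 29.0% lower in U251 RNASeq, and 0.944% and 0.263% in U251 RIPSeq. In U343 the shares were 8.31% and 11.7% in RNASeq and 28.5% and 27.8% in RIPSeq. Nothing particular to the list is read from its counts. The medians of the list were 0.47, -0.14, 0.18 and -0.12 on the log2 scale, where those of all tested genes were 0.02, -0.02, 0.02 and 0.00. The 2 genes that fell in U251 RNASeq were SERPINA5, the protein C inhibitor (-1.92), and ANXA2, a plasminogen-binding annexin (-0.80), both named after their values were seen. In U343 RIPSeq they were SERPINA5 (-2.02) and LRP1 (-0.999), the endocytic receptor that clears protease and serpin complexes. SERPINA5 had few reads there, with means of 0.268 CPM in controls and 0.0640 CPM after miR-137. LRP1 went the other way in U251 RNASeq, from 5.92 to 15.1 CPM (1.35 ± 0.26, edgeR, adjusted p = 0.00066). Its difference between the lines was -1.56 ± 0.42 in RNASeq and -1.11 ± 0.49 in RIPSeq (edgeR, adjusted p = 0.030 and 0.25).

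MMP1, the interstitial collagenase, was a gene of few reads that rose in 3 experiments. In U251 RNASeq it had 10 and 25 control reads and 72 and 76 after miR-137, or 0.639 and 1.53 CPM against 6.50 and 6.75 CPM (2.59 ± 0.32, edgeR, adjusted p = 1.5e-05). In U251 RIPSeq the reads were 43 and 59 against 240 and 256 (2.23 ± 0.25, edgeR, adjusted p = 0.043), and the call was lost without either miR-137 library. In U343 RIPSeq, 6 and 4 control reads stood against 27 and 13 (2.11 ± 0.52, edgeR, adjusted p = 0.0099), a call lost without either control or without miR-137 replicate 1. U343 RNASeq had 4 and 1 against 7 and 15 reads and was not tested. The depth-scaled ratios of summed reads were 6.06 in U251 RNASeq (exact 95% interval 4.17 to 9.02), 4.38 in U343 RNASeq (1.62 to 14.8) and 4.39 in U343 RIPSeq (2.16 to 9.84), so the miR-137 libraries were above the controls in each.

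MMP2, gelatinase A, and MMP14, the membrane-bound MMP that activates it, were both called higher in U251 RNASeq and passed the test in no other experiment. MMP2 was at 97.7 and 104 CPM in U251 RNASeq controls and 142 and 120 CPM after miR-137 (0.38 ± 0.13, edgeR, adjusted p = 0.025), a call that was lost without the filter on low counts and without 3 of the 4 libraries in turn. In U251 RIPSeq it was at 605 and 411 CPM against 253 and 278 CPM, lower without overlap but not past the test (-0.94 ± 0.27, edgeR, adjusted p = 0.17). In U343 it had 14 to 39 reads per library, at most 0.920 CPM, and the groups overlapped. MMP14 rose in U251 RNASeq from 25.9 and 20.7 CPM to 47.6 and 48.3 CPM (1.04 ± 0.15, edgeR, adjusted p = 4.8e-05), a 2.06-fold change. In U251 RIPSeq it was at 121 and 82.6 CPM against 73.9 and 78.9 CPM, which did not pass (-0.42 ± 0.29, edgeR, adjusted p = 0.49). In U343 the RNASeq controls were at 421 and 456 CPM and the miR-137 libraries at 403 and 474 CPM. These overlapped, as did the RIPSeq groups at 698 and 579 against 700 and 568 CPM. The change in U343 was 0.00 ± 0.12 in RNASeq and -0.01 ± 0.14 in RIPSeq, with directions that turned under upper-quartile scaling (edgeR, adjusted p = 0.99 and 0.96).

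Outside the set, the MMP genes with the largest changes in U251 RNASeq were MMP13 and MMP15. MMP13, collagenase 3, rose from 10 and 7 reads to 222 and 208 reads (5.15 ± 0.26, edgeR, adjusted p = 3.4e-09). In U251 RIPSeq it rose from 56 and 109 to 2245 and 2550 reads (4.83 ± 0.38, adjusted p = 0.026, a call lost without the filter on low counts), and in U343 RIPSeq from 3 and 0 to 47 and 24 reads (4.58 ± 0.73, adjusted p = 0.0013). The depth-scaled ratio in U343 RIPSeq was 26.0, with an exact 95% interval of 8.53 to 129, from 3 control reads in all, and with 1 library left out the log2 fold change ran from 3.70 to 8.17. MMP15, another membrane-bound MMP, went in opposite directions in the lines. It fell in U251 RNASeq by 2.01 on the log2 scale (6.13 and 5.81 CPM against 1.71 and 1.24 CPM, edgeR, adjusted p = 3.3e-05) and rose in U343 RIPSeq from 237 and 269 to 402 and 410 CPM (0.68 ± 0.10, adjusted p = 0.00090). The difference between the lines was 2.96 ± 0.36 in RNASeq and 1.72 ± 0.24 in RIPSeq (edgeR, adjusted p = 0.0017 and 0.018). Without the 3 MMPs of the set, 2 of 6 tested MMP genes were higher and 3 lower in U251 RNASeq, 1 and 0 of 11 in U251 RIPSeq, 1 and 0 of 10 in U343 RNASeq, and 4 and 1 of 11 in U343 RIPSeq. The gene called in U343 RNASeq was MMP24 (1.47), a membrane-bound MMP of neural tissue, named after its values were seen. MMP24 was also higher in U343 RIPSeq (1.19) and fell in U251 RNASeq (-1.19). Its difference between the lines was 2.65 ± 0.24 in RNASeq and 2.99 ± 0.38 in RIPSeq (edgeR, adjusted p = 0.00059 and 0.014). Of all genes, 28.7% were higher and 29.0% lower in U251 RNASeq, and 0.944% and 0.263% in U251 RIPSeq. In U343 the shares were 8.31% and 11.7% in RNASeq and 28.5% and 27.8% in RIPSeq. Nothing particular to the MMP list is read from its counts.

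TIMP1, an inhibitor of most MMPs, rose in both U343 experiments. In RNASeq it was at 43.7 and 42.7 CPM in controls and 58.9 and 61.1 CPM after miR-137 (0.47 ± 0.09, edgeR, adjusted p = 0.030), a call lost without either control library. In RIPSeq it went from 85.8 and 75.5 CPM to 137.4 and 123 CPM (0.69 ± 0.10, adjusted p = 0.00077). The groups were apart in both. In U251 the values were 51.8 and 62.2 against 63.2 and 80.3 CPM in RNASeq (0.33 ± 0.15, adjusted p = 0.073) and 357 and 252 against 197 and 248 CPM in RIPSeq (-0.45 ± 0.28, adjusted p = 0.44), neither past the test. In U251 RNASeq the test was passed with upper-quartile scaling or unscaled totals. These put the median log2 ratio of all genes in this experiment at 0.16 and 0.28, against 0.02 with TMM. With 1 library left out, the change of TIMP1 there ran from 0.14 to 0.50.

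TIMP3, which is bound to the matrix and also inhibits ADAM proteases, fell in U251 RNASeq. It had 85 and 92 reads in controls and 39 and 27 after miR-137, or 5.43 and 5.63 CPM against 3.52 and 2.40 CPM (-0.90 ± 0.25, edgeR, adjusted p = 0.0070). The call was lost without miR-137 replicate 2. In U251 RIPSeq the order was turned, at 19.0 and 20.9 against 34.6 and 39.3 CPM, again without overlap, but not past the test (0.89 ± 0.25, edgeR, adjusted p = 0.16). The U343 groups overlapped in both assays, between 74.2 and 166 CPM, with changes of 0.18 ± 0.26 and -0.37 ± 0.22 (adjusted p = 0.66 and 0.19).

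Among the metalloproteinase inhibitors other than TIMP1 and TIMP3, 0 of 4 tested were higher and 2 lower in U251 RNASeq, 0 and 0 of 7 in U251 RIPSeq, 1 and 1 of 4 in U343 RNASeq, and 1 and 2 of 4 in U343 RIPSeq. RECK, a membrane-anchored inhibitor of MMPs, was among those that fell in U251 RNASeq (-0.92), U343 RNASeq (-1.08) and U343 RIPSeq (-1.33, from 40.0 to 15.9 CPM). The remaining genes called were TIMP4 (-0.83, U251 RNASeq), which did not pass the filter on low counts within U343, TIMP2 (-1.32, U343 RIPSeq) and the testican SPOCK1, higher in U343 by 1.53 in RNASeq and 1.20 in RIPSeq. All of these were named after their values were seen. The shares of all genes called higher and lower were 28.7% and 29.0% in U251 RNASeq and 0.944% and 0.263% in U251 RIPSeq. In U343 they were 8.31% and 11.7% in RNASeq and 28.5% and 27.8% in RIPSeq. Nothing particular to the inhibitors is read from their counts.

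The counts of the following lists stand beside shares of all genes called higher and lower of 28.7% and 29.0% in U251 RNASeq, 0.944% and 0.263% in U251 RIPSeq, 8.31% and 11.7% in U343 RNASeq, and 28.5% and 27.8% in U343 RIPSeq, and nothing particular to a list is read from them. Of the serpins other than SERPINA3 and SERPINE2, 3 of 10 tested were higher and 2 lower in U251 RNASeq, 0 and 0 of 11 in U251 RIPSeq, 1 and 0 of 10 in U343 RNASeq, and 2 and 1 of 11 in U343 RIPSeq. The largest rise in U343 RIPSeq was that of SERPING1, the inhibitor of complement C1, with 1 read in either control and 62 and 72 reads after miR-137 (6.02 ± 0.41, edgeR, adjusted p = 2.1e-05), a depth-scaled ratio of 73.5 with an exact 95% interval of 19.9 to 613. Among acute-phase genes other than SERPINA3, 0 of 2 tested genes in U251 RNASeq, 0 of 4 in U251 RIPSeq and 0 of 5 in U343 RNASeq were called by edgeR in either direction, and in U343 RIPSeq CP fell (-1.10) and C3 rose (3.31) out of 4. Of the ADAM and ADAMTS proteases, 8 of 21 were higher and 3 lower in U251 RNASeq, 0 and 0 of 29 in U251 RIPSeq, 2 and 3 of 27 in U343 RNASeq and 9 and 6 of 28 in U343 RIPSeq. ADAMTS20, chosen for the size of its rise in U343 RIPSeq, went from 9 and 0 to 92 and 79 reads (4.35 ± 0.57, adjusted p = 0.00049). Its depth-scaled ratio was 20.8, with an exact 95% interval of 10.7 to 46.4, and the log2 fold change ran from 3.42 to 9.44 with 1 library left out, where 1 control had 0 reads. Of the Kunitz-type inhibitors and membrane serine proteases, 3 of 4 were higher and 1 lower in U251 RNASeq, 0 and 0 of 6 in U251 RIPSeq, 0 and 1 of 4 in U343 RNASeq, and 2 and 1 of 5 in U343 RIPSeq. FAP, a surface serine protease, rose in U251 RNASeq (2.41) and fell in U343 in both assays (-1.58 and -2.23). The rise, from 7 and 3 to 28 and 10 reads, was not called without miR-137 replicate 1 or without the filter on low counts, nor was the fall in U343 RNASeq without either control. The difference between lines was -4.01 ± 0.72 in RNASeq and -5.89 ± 0.60 in RIPSeq (edgeR, adjusted p = 0.0062 and 0.0098).

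The 4 libraries of U343 RNASeq differed in a way that bears on all values of that experiment. The summed level of 12 interferon-induced genes was 211 and 218 CPM in the controls, 164 CPM in miR-137 replicate 1 and 13061 CPM in miR-137 replicate 2. In the other 3 experiments all miR-137 libraries had between 13417 and 16187 CPM, and the controls between 189 and 276 CPM. In replicate 1, without the interferon-induced genes, SERPINA3 was at 0.427 CPM, lower than the 0.660 CPM of replicate 2. PLAUR was at 77.7 CPM in replicate 1 and 141 CPM in replicate 2, TIMP1 at 58.9 and 61.1 CPM, and PLAT at 75.3 and 123 CPM. All of these 4 genes were taken from those whose miR-137 and control groups were apart in this experiment. That replicate 1 lay outside the range of the controls, in the same direction as replicate 2, therefore follows from their choice. In the rest of the set, PLAU and MMP1 lay above both controls in both replicates, with few reads, and TIMP3 in replicate 1 alone. SERPINE2, MMP14 and MMP2 lay above both controls in replicate 2 alone. SERPINE2 had 17.1 and 19.0 CPM in controls, 16.9 CPM in replicate 1 and 22.3 CPM in replicate 2. In the same order MMP14 had 421, 456, 403 and 474 CPM, and MMP2 0.368, 0.713, 0.427 and 0.920 CPM. Other genes of the lists were high in replicate 2 alone. ADAMTS20 had 2 and 4 reads in the controls, 4 in replicate 1 and 238 in replicate 2, and MMP13 had 1, 2, 3 and 39 reads.

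**Figure D4:**
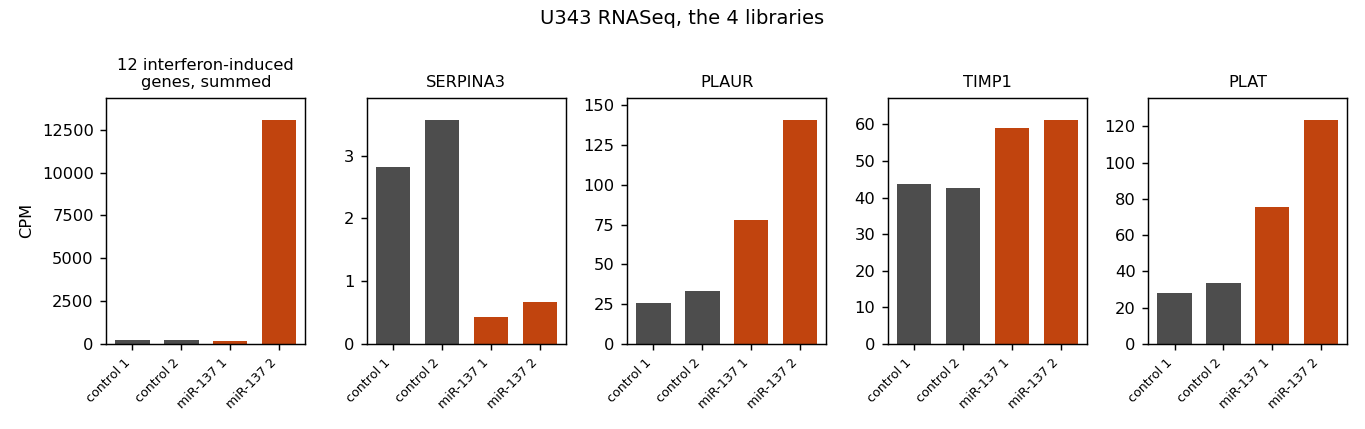
Level in CPM (linear axes from 0, 1 per panel) in the 4 U343 RNASeq libraries of the summed interferon-induced genes and of 4 protease system genes. Bars are single libraries, control mimic in grey and miR-137 mimic in orange. The interferon sum is 164 CPM in miR-137 replicate 1 and 13061 CPM in replicate 2. SERPINA3 is low and PLAUR, TIMP1 and PLAT are high in both, which follows from their choice as genes whose groups were apart here.

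With miR-137 replicate 2 left out, the log2 fold change of SERPINA3 in U343 RNASeq was -2.89 and that of PLAUR 1.40, and with replicate 1 left out they were -2.27 and 2.25. In U251 and in U343 RIPSeq the interferon-induced genes moved with the mimic in all libraries (12 of 12, 12 of 12 and 11 of 12 called higher), and their part in the differences of the 9 genes was not tested there. The summed level of 8 glial and glioma markers also moved in U251, from 12348 and 12748 CPM in RNASeq controls to 5981 and 6239 CPM after miR-137. Most of the control sum was VIM (8195 CPM) and CD44 (3589 CPM). Of these markers edgeR called 6 lower and 1 higher in U251 RNASeq, against 29.0% and 28.7% of all genes. In U251 RIPSeq it called 0 in either direction. In U251 RNASeq the summed level of 11 markers of other cell types went from 48.7 and 49.7 CPM to 110 and 125 CPM. Most of its control sum was SYT1 (34.5 CPM). Their part in the differences was not tested.

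Whether the response differed between the lines was tested as an interaction. In RNASeq, 2 of the 8 genes were called, against 25.2% of all genes. MMP14 rose in U251 and not in U343, with a difference of -1.05 ± 0.21 (edgeR, adjusted p = 0.0085) that was called with every library left out in turn. SERPINE2 differed by -0.65 ± 0.20 (adjusted p = 0.046), a call lost in 7 of the 8 fits without 1 library. PLAUR had nearly the same change in both lines, with a difference of 0.03 ± 0.36 (adjusted p = 0.98), an estimate too wide to show that the lines respond alike. In RIPSeq 0 of the 8 were called by edgeR, against 3.28% of all 15959 tested genes. At an unadjusted p under 0.05 there were 4 of the 8 and 3353 of all genes. DESeq2 called 4 of the 8 and 1852 of all genes. With 1 of the U251 RIPSeq controls left out, edgeR calls rose among the 8 genes and over all genes alike, so nothing particular to the 8 is read from such fits. PLAU had the largest difference there (2.77 ± 0.58, edgeR, adjusted p = 0.052).

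The responses in RIPSeq and RNASeq were compared within each line in the same way. In U251, 0 of the 8 genes were called by edgeR, as were 0.134% of all 14210 tested genes. At an unadjusted p under 0.05 there were 5 of the 8 and 2688 of all genes. DESeq2 called 4 of the 8 and 704 of all genes. The estimates were nonetheless large. TIMP3 differed by 1.74 ± 0.32 (edgeR, adjusted p = 0.079), MMP14 by -1.51 ± 0.35, PLAU by -1.45 ± 0.34 and MMP2 by -1.37 ± 0.34 (adjusted p = 0.12 for each). The edgeR count of 0 rested on having both U251 RIPSeq controls in the fit, which differed widely from each other. With 1 of them left out, calls rose over all genes as well. Nothing particular to the 8 genes is read from such fits. In U343, 0 of the 7 genes with a usable standard error were called, as were 0.00649% of all 15413 tested genes. At an unadjusted p under 0.05 there were 0 of them and 2712 of all genes. DESeq2 called 0 of them and 400 of all genes. MMP1 passed the filter as well, but the F statistic gave no usable standard error for it, so its difference is not given.

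How much of each mRNA was bound to PABP relative to total RNA was compared in the control libraries alone, apart from any effect of miR-137. In U251, 7 of the 8 genes were higher in PABP-bound RNA (7.87% of all genes were), with log2 ratios between 1.30 ± 0.32 for SERPINE2 and 2.57 ± 0.37 for TIMP1 (edgeR, adjusted p = 0.045 and 0.021). MMP1 had a ratio of 1.01 ± 0.51 (adjusted p = 0.20), and SERPINA3 one of -0.64 ± 0.32, below 0. The U251 calls fell to 1 of 8 without either RNASeq control and to 0 without the filter on low counts. In U343, 6 of the 8 were tested and 2 were higher (24.4% of all genes were), TIMP1 by 1.01 ± 0.09 and MMP14 by 0.65 ± 0.11 (edgeR, adjusted p = 0.00013 and 0.0022). SERPINA3 had a ratio of 2.27 ± 0.21 in U343 controls. These ratios come from the control libraries that the comparison of the assays also used. The ratios are relative to all other genes in the same libraries and do not give the bound share of an mRNA.

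**Figure D5:**
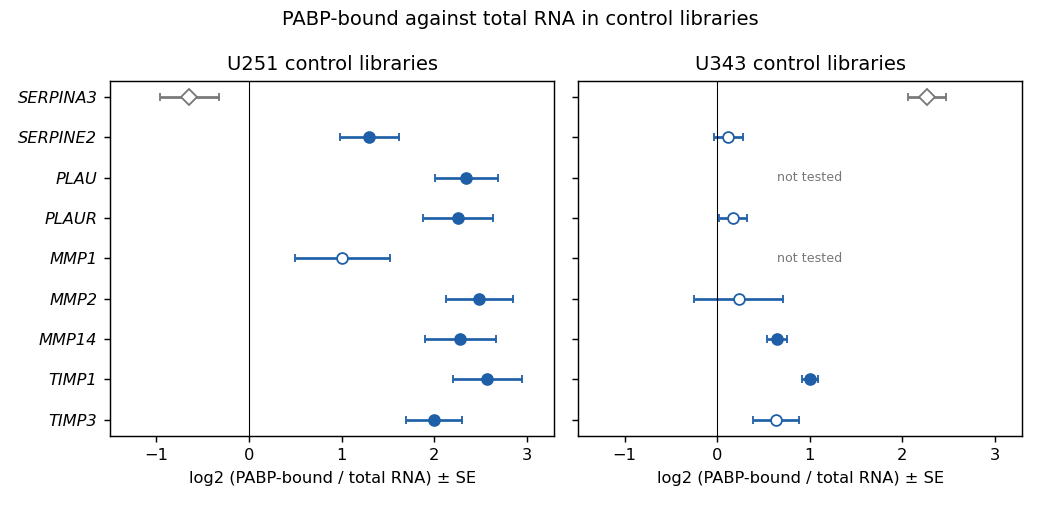
Log2 ratio of PABP-bound to total RNA (horizontal axis, ± SE) of the 9 genes in the control libraries of U251 and U343. Filled circles passed an adjusted p of 0.05 in edgeR, open circles did not, diamonds mark SERPINA3, and genes with too few reads are marked as not tested. SERPINA3 is at -0.64 in U251 and at 2.27 in U343.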

How the data were processed

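U251 and U343 glioblastoma cells gave 16 libraries. The deposited values are raw counts per gene: the authors mapped reads with RMAP (hg18) and collapsed the RefSeq isoforms of a gene into 1 transcript for counting. The treatment of reads mapping to several places is not given in the sources used here, nor is a strand setting. In the U251 tables SLC35E2 stood on 2 lines, of which the first was kept.

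Counts were compared within each experiment with edgeR 4.0.16 (TMM, filterByExpr, quasi-likelihood F test, R 4.3.3), with Benjamini-Hochberg adjustment over all genes tested and a threshold of 0.05. Differences between lines or assays were interaction terms. Standard errors came from the F statistic. CPM used TMM-scaled totals, and log2 CPM a prior count of 2. Genes with under 50 control reads had ratios of summed counts with exact 95% intervals. The study's rule used two-sided Fisher's exact tests. Alternatives were DESeq2 1.42.0, upper-quartile scaling, no filter beyond 1 read, the replicate number as a block, each library left out, and for the rule an odds ratio over 1.5 or at least 3 of 4 pairs. Unscaled totals and a crossed block were added after the data were seen. With 1 library left in a group, that library was assumed to vary like the others. The procedures were tested on simulated counts.

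The 9 genes, the lists and the tests were chosen with earlier results of these data known. Named list genes were, per experiment, the 2 with the largest change among those called in the same direction in all 4 pairs and averaging 50 or more reads in the higher group, as well as the 5 genes nearest to SERPINA3. An additional U251 replicate mentioned in the methods was not analysed here. 1 gene of the plasminogen and serpin lists is not reported here and was left out of both.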

Additional observations from a re-analysis of the deposited data

Results flagged for a closer look

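In RNASeq, the responses of SERPINE2 and MMP14 differed between the lines by the edgeR test of the difference, U343 minus U251, at -0.6539 and -1.0522 on the log2 scale (adjusted p = 0.046 and 0.0085). Both rose in U251, and in U343 their groups overlapped.

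Of other genes, all pairs of libraries went one way in one line or assay and the opposite way in the other in TMM-scaled CPM, and the edgeR test of the difference was not passed. Between the lines in RIPSeq these were PLAU (2.7679, adjusted p = 0.052) and TIMP1 (1.2075, adjusted p = 0.089), lower after miR-137 in U251 and higher in U343. Between the assays in U251, RIPSeq minus RNASeq, they were PLAU (-1.4473), MMP2 (-1.367), MMP14 (-1.5103) and TIMP1 (-0.8388), higher after miR-137 in total RNA and lower in PABP-bound RNA, and TIMP3 (1.7418), with the reverse order. The adjusted p of these 5 lay between 0.079 and 0.27. All of them rest on the U251 RIPSeq controls, which differed widely from each other, and the cause was not tested. With unscaled totals, TIMP1 and MMP14 had pairs in both directions in U251 RIPSeq.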

How the results depend on the processing

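Of the single-gene values recomputed under the alternatives, 920 kept their side of the threshold, 80 passed it only under the alternative, 54 no longer passed it, 4 values with no test moved by more than the spread and 0 called values reversed. Among the 920, 50 values over 21 results changed sign, all of them not past the threshold and none with a reported value above 0.68 on the log2 scale in either direction. The 4 experiments did not depend equally on the processing. For U251 RNASeq and U343 RIPSeq, the edgeR and DESeq2 alternatives kept the count of all called genes within 1.5 times, and of the 8 genes 6 to 7 and 2 to 4 were called with 1 library left out.

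DESeq2 called 1123 genes instead of 170 in U251 RIPSeq. It called 1852 instead of 524 for the difference between lines in RIPSeq, with 4 of the 8 genes instead of 0. In RNASeq it called 4196 instead of 3922 for that difference, with 4 of the 8 instead of 2. It called 704 instead of 19 for the assays in U251, with 4 of the 8 instead of 0, then 400 instead of 1 for the assays in U343, and 3615 instead of 1855 for PABP-bound RNA in U251. With no filter beyond 1 read, U251 RIPSeq had 59 genes and 0 of the 8, the difference between lines 1 of the 8 in RNASeq and 1 in RIPSeq, the assays 32 genes in U251 and 2 in U343, and PABP-bound RNA in U251 100 genes and 0 of the 8. Upper quartiles gave 9 genes for the assays in U251. The cause was not tested.

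The replicate block was run as an alternative only, since the labels do not say that a number marks a shared culture or day (correlations of the deviations of same-numbered libraries were 0.091 in U251 RNASeq, -0.16 in U251 RIPSeq, 0.099 in U343 RNASeq and 0.45 in U343 RIPSeq, from 2 pairs each). With the block, 802 genes were called in U251 RIPSeq (933 with crossed numbers), 1 of the 8 instead of 2 in U343 RNASeq, 119 for the lines in RIPSeq, 0 for the assays in U251, 0 in U343, and 4036 for PABP-bound RNA in U251. With it TIMP1 passed in U251 RNASeq and not in U343 RNASeq, SERPINE2 and TIMP3 passed in U343 RIPSeq, TIMP3 passed for the lines in RNASeq, FAP in U251 RIPSeq and MMP15 in U343 RNASeq, and it changed the side of the threshold for no other value of a named gene.

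With the odds ratio of the study's rule at 1.5, the calls were 3396 genes and 5 of the 8 in U251 RNASeq, 2115 and 3 in U251 RIPSeq, 2053 in U343 RNASeq and 3437 in U343 RIPSeq. With 3 of 4 pairs, 2 of the 8 were called in U343 RNASeq.

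When libraries were left out singly, the counts of all genes and of the 8 ranged from 141 to 11670 and 0 to 8 in U251 RIPSeq and from 0 to 6146 and 0 to 3 in U343 RNASeq. For the lines they ranged from 1877 to 5676 and 1 to 4 in RNASeq and from 2 to 9113 and 0 to 5 in RIPSeq. For the assays they ranged from 0 to 8869 and 0 to 6 in U251 and from 0 to 3113 and 0 to 1 in U343, and for PABP-bound RNA in U251 from 227 to 11168 and 1 to 8. The study's rule ranged from 1117 to 3671 and 1 to 3 in U251 RIPSeq, from 1094 to 1765 and 1 to 2 in U343 RNASeq, and from 1 to 2 of the 8 in U343 RIPSeq. The highest counts in U251 RIPSeq came without a control library and those in U343 RNASeq without a miR-137 library. Depth limits PLAU, MMP1 and MMP2 in U343 and MMP1 and TIMP3 in U251 RNASeq, with at most 92 reads in any of these libraries.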
